A study of Homo sapiens with 24 samples.

Results

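T24 is an established human bladder cancer cell line, and its untreated libraries are described here against those of 3 other untreated bladder cancer lines, 5637, TCC-SUP and CLS-439. The members were chosen by their labels alone: 3 untreated T24 libraries (replicates 1, 3 and 4) of 24 libraries in all, set against 9 untreated libraries, 3 from each other line. The other 12 libraries came from the same 4 lines exposed to mitomycin C, a DNA crosslinking drug, at 75 µM for 1 h, with RNA taken 15 h later. They serve here only to repeat the comparison. No line carries an introduced gene or deletion per the labels, and the labels of the untreated groups differ only in the line. Each line stands for 1 tumour grown in culture, so the SD over 3 libraries measures the spread between cultures and not between tumours. The quantity compared is T24 minus the mean of the other 3 lines on the log2 scale, each line weighted equally.

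The urothelium, the lining of the bladder, is a layered epithelium. Its basal cells make the keratin KRT5 and the transcription factor TP63, its surface cells make uroplakins, and its cells are joined by the cadherin CDH1 and by claudins. Bladder cancer lines keep these traits to different degrees, and some instead express factors of epithelial-mesenchymal transition (EMT), the switch by which epithelial cells lose their junctions. T24 is known for an activated HRAS oncogene, the gene of a small GTPase that signals from growth factor receptors to the MAP kinases.

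Untreated T24 libraries held 24150912 to 28821665 counted reads. The ranges were 21920170 to 23810260 in 5637, 22013754 to 23121939 reads in TCC-SUP and 17103409 to 20863429 in CLS-439. The CLS-439 libraries stood apart: mitochondrial genes took 0.0238% to 0.0283% of their reads, against 3.21% to 5.10% in the other 9 libraries. Processed pseudogenes took 2.90% to 3.05% of the reads in CLS-439 and at most 0.225% elsewhere. The part of this in any difference from CLS-439 was not tested, so results are also given against the mean of 5637 and TCC-SUP alone. Levels below are CPM, reads of a gene scaled by library size with the TMM method, and calls are made at an adjusted p under 0.05 (edgeR quasi-likelihood test, Benjamini-Hochberg over all genes tested). In bulk RNA, fewer cells making a transcript and less RNA per cell cannot be told apart.

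Of 19523 genes tested, 6416 were higher in T24 than the mean of the other 3 lines (32.9%) and 5478 were lower (28.1%). Asking for a log2 difference of at least 1 left 2645 higher (13.5%) and 3077 lower (15.8%). Against 5637 and TCC-SUP alone, 5631 were higher (28.8%) and 5434 lower (27.8%). Against 5637 alone, 5586 were higher (28.6%) and 5719 lower (29.3%), and against TCC-SUP alone 5510 (28.2%) and 6566 (33.6%). Against CLS-439 alone, 7164 were higher (36.7%) and 8405 lower (43.1%). In 1842 genes (9.44%) all 3 T24 libraries lay above all 9 others, and in 1504 (7.70%) they lay below. The median log2 difference of all genes was -0.07, and 0 without CLS-439. Any list of genes below is read against these shares.

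T24 carried transcripts of an MHC class II pair that the other lines nearly or wholly lacked. MHC class II molecules are an alpha and a beta chain that present peptides from outside the cell to helper T cells. They are made mainly by antigen-presenting cells, under the coactivator CIITA. HLA-DPB1, the DP beta chain (chr6:33075926-33087201, plus strand), had 31.0, 32.8 and 26.5 CPM in T24. It was at 0 in all 5637 and TCC-SUP libraries, and at 0, 0.154 and 0.201 CPM in CLS-439. All 3 T24 libraries lay above all 9 others. With the floor for a line at 0 set at 3 reads over its 3 libraries, T24 was at least 654-fold higher than 5637, at least 651-fold higher than TCC-SUP and at least 486-fold higher than the mean of the 3 lines (adjusted p = 1.49e-15).

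HLA-DPA1, the DP alpha chain, had 10.4, 12.4 and 10.4 CPM in T24. Its level was 0 in 5637, 0 to 0.134 CPM in TCC-SUP and 0.453 to 0.717 CPM in CLS-439. The log2 difference from CLS-439 was 4.27 ± 0.26 (SE, adjusted p = 1.22e-11). HLA-DPA1 and HLA-DPB1 overlap on opposite strands, and whether the counting used the strand is not stated, so reads in the overlap could belong to either. CD74, the invariant chain that escorts class II molecules, had 13.3, 16.3 and 11 CPM in T24. TCC-SUP came next at 4.53 to 7.14 CPM (log2 difference 1.26 ± 0.22, adjusted p = 2.98e-05), while 5637 and CLS-439 held 3 and 4 reads in all.

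CIITA itself went the other way, at 0.0783 ± 0.00851 CPM (SD) from 6 reads in T24, against 0.275 ± 0.0121 in 5637, 0.965 ± 0.246 CPM in TCC-SUP and 0.439 ± 0.113 in CLS-439 (log2 difference -2.57 ± 0.43, adjusted p = 2.33e-05). RFX5, which binds class II promoters, did not pass (43.6 ± 3.98 CPM in T24, log2 difference -0.13 ± 0.10, adjusted p = 0.297). Among 13 tested genes of class II presentation, HLA-DPB1, HLA-DPA1 and CD74 were higher, CIITA, HLA-DMA and HLA-DQB1 were lower, and 7 did not pass. HLA-DMA did not pass without CLS-439 (-0.59 ± 0.36, adjusted p = 0.176), and HLA-DQB1 was lost without 5637 replicate 4 (log2 difference -4.89, adjusted p = 1). HLA-DRA and HLA-DQA1 were too low to test, with 1 and 0 reads in T24. HLA genes vary between people and were counted against 1 reference genome, so a 0 can also reflect an allele that did not align.

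The promoters of HLA-DPB1 and CD74 are shown because class II promoters are known for a CCAAT box, the site of the factor NF-Y. Both are RefSeq sequences of build GRCh38.p14, from 250 bases before to 50 after the gene's start, with CCAAT or its reverse complement ATTGG in capitals, found by a search of both strands.
HLA-DPB1 (chr6:33075740-33076039, plus strand): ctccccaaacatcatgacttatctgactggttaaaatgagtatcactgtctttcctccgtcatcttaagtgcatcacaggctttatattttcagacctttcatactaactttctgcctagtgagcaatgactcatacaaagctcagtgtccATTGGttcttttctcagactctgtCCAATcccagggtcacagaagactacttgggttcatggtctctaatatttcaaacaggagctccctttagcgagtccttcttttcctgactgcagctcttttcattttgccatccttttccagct
CD74 (chr5:150412861-150413160, minus strand): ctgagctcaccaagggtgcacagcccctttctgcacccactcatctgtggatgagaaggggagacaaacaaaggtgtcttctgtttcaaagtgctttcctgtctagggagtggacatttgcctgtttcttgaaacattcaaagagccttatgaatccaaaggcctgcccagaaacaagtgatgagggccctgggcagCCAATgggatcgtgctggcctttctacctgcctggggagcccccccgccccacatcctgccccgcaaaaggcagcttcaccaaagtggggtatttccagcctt
HLA-DPB1 held 2 matches and CD74 held 1, and 34.6% of 35116 RefSeq promoters of this length held at least 1. Of the 13 tested class II genes 12 had a RefSeq promoter. They had 17 promoters, of which 9 held the box. Of 4 promoters of genes higher in T24, 2 held it, the ones shown, and none of HLA-DPA1 did. Of 2 promoters of genes lower in T24, 2 held it. A match in the letters is a description and not a measured site.

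BNC1, a zinc finger protein of basal keratinocytes and the germ line (chr15:83255903-83284714), had 140.3, 156 and 181 CPM in T24. It had 0 to 0.369 CPM in 5637, 3 reads in TCC-SUP and 0.103 to 0.453 CPM in CLS-439. No other library came within reach of T24, and the log2 difference from the mean of the 3 lines was 10.03 ± 0.19 (adjusted p = 2.08e-18). WSCD1, a sulfotransferase-domain protein (chr17:6057807-6124427), had 179, 149 and 117 CPM in T24. It was at 0 in 5637, at 1 read in TCC-SUP, and at 10.6, 9.0 and 8.90 CPM in CLS-439. T24 therefore stood above CLS-439 too, by 3.96 ± 0.16 on the log2 scale (adjusted p = 5.72e-14).

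NLRP1 set T24 apart from 5637 and CLS-439 much more than from TCC-SUP. It encodes a sensor that assembles the inflammasome, the complex that activates the protease CASP1, which in turn matures the cytokines IL1B and IL18 and cuts the pore former GSDMD. NLRP1 (chr17:5499427-5619424) had 85.3, 93.8 and 78.3 CPM in T24, against 53.2, 42.1 and 53.2 CPM in TCC-SUP. The groups did not overlap, with a log2 difference of 0.79 ± 0.15 (adjusted p = 0.000171). In 5637 and CLS-439 no library passed 0.306 CPM, and the differences were 8.72 ± 0.28 and 8.90 ± 0.29.

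Of 18 tested inflammasome and gasdermin genes, 11 were higher in T24 than the mean of the 3 lines and 7 did not pass. Against 5637 and TCC-SUP alone 8 were higher and 4 lower. Line by line, 6 were higher and 7 lower than in 5637, 9 and 5 than in TCC-SUP, and 15 and 1 than in CLS-439. The summed level of the list was 746 to 762 CPM in T24 and 1793 to 2173 in 5637. It was 591 to 684 CPM in TCC-SUP and 231 to 262 in CLS-439. PYCARD, the adaptor between sensor and CASP1, had 17.6, 15.8 and 11.8 CPM in T24, against 1.29 to 1.62 in 5637, 4.14 to 4.68 CPM in TCC-SUP and 1 read in CLS-439. IL18 averaged 68.5 ± 6.22 CPM in T24, and 22.6 ± 2.57 in 5637, 35.1 ± 4.80 CPM in TCC-SUP and 3.30 ± 0.315 in CLS-439. All T24 libraries were the highest for both genes, and for GSDMD (log2 difference 1.16 ± 0.09). CASP1 was higher than the mean of the 3 lines (2.44 ± 0.14), yet lay below TCC-SUP, with 16.4 ± 0.821 CPM in T24 against 28.4 ± 2.20 CPM in TCC-SUP. With CLS-439 left out of the fit it did not pass (log2 difference 0.254, adjusted p = 0.072). IL1B, at 83.2 ± 12.2 CPM in T24, lay between 5637 at 729 ± 131 and TCC-SUP at 5.70 ± 0.951 CPM.

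HLA-DPB1, WSCD1 and BNC1 were 3 of the 12 largest rises by log2 difference among called genes with a T24 mean of at least 10 CPM and all T24 libraries above all 9 others. The other 9 are given here. LY6K, a surface protein of the Ly6 family, had 231, 269 and 249 CPM in T24. The next line was 5637 at 50.9 to 60 CPM, a log2 difference of 2.19 ± 0.12, and CLS-439 held no read. PAX5, known as the commitment factor of B cells, had 11.9, 15.0 and 12.1 CPM in T24. Its level was at most 0.191 CPM in any 5637 library, with 1 read in TCC-SUP and none in CLS-439, so T24 was at least 260-fold above the mean of the 3 lines. SRGN, a proteoglycan of secretory granules, had 411, 512 and 495 CPM in T24, against 125 to 168 in TCC-SUP and at most 0.302 in 5637 and CLS-439.

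CLDN11, a tight junction claudin known from myelin and testis, had 302, 306 and 267 CPM in T24. No other library exceeded 5.76 CPM, and the log2 difference ran from 5.96 ± 0.18 over TCC-SUP to 12.05 ± 0.29 over CLS-439. CD40, a receptor of the TNF receptor family, had 74.2, 82.8 and 75.8 CPM in T24. CLS-439 had 14.8 to 16.2 CPM, and 5637 and TCC-SUP held 1 and 5 reads. SLC17A9, which loads ATP into vesicles, had 82.3, 82.1 and 79.5 CPM in T24, against 25.8 to 32.2 CPM in CLS-439 and 1 read in each of 5637 and TCC-SUP.

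For 2 of the remaining 3 genes another line was close behind. CDH4, a cadherin of neural tissue, averaged 53 ± 9.55 CPM in T24 and 25.2 ± 0.790 in 5637, with 2 reads in TCC-SUP and none in CLS-439. APBA2, an adaptor that binds the amyloid precursor, averaged 32.9 ± 2.96 CPM in T24 and 24 ± 0.858 in CLS-439, and was at 0 in 5637 and TCC-SUP. SHISA3 had 29.4, 19.8 and 16.9 CPM in T24, against 9 reads in CLS-439, 1 in 5637 and 0 in TCC-SUP. Without CLS-439 the largest rises also took in FOXC2, a forkhead factor of mesoderm. FOXC2 averaged 31.0 ± 3.24 CPM in T24, against 0 in 5637, 3 reads in TCC-SUP and 27.9 ± 7.46 in CLS-439. It was thus high in T24 and CLS-439 alike and at or near 0 in 5637 and TCC-SUP.

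**Figure D1:**
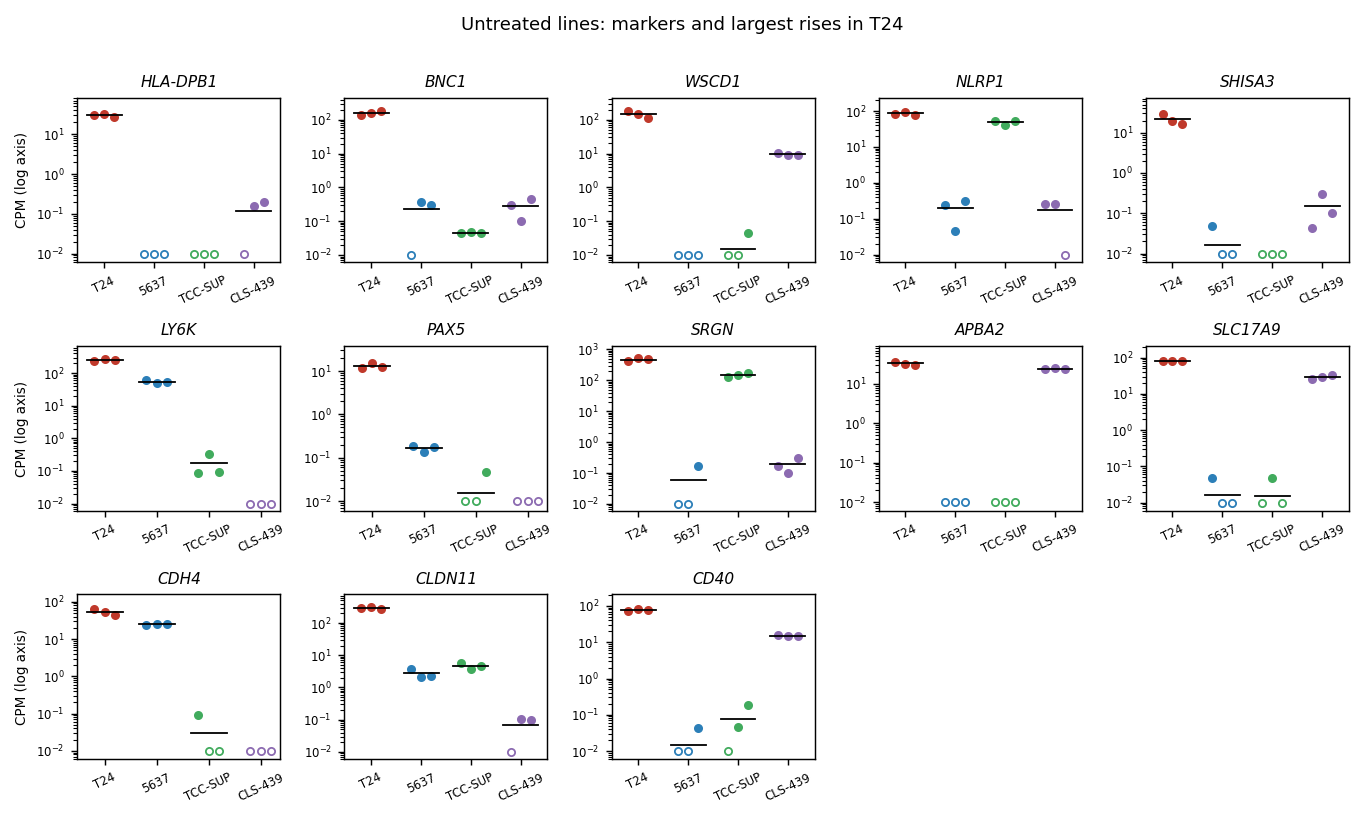
Each panel shows 1 gene, with CPM on a log axis (its range differs between panels) and the 4 untreated lines from T24 on the left to CLS-439. Filled points are libraries, black bars are means of 3 libraries, and open points drawn at 0.01 mark libraries with no read. T24 libraries lie highest in each panel, which the rule required of the 12 largest rises. The second line differs from gene to gene: TCC-SUP for NLRP1 and SRGN, CLS-439 for APBA2 and SLC17A9, 5637 for LY6K and CDH4.

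The 12 largest falls were taken, by the same rule, from genes with a mean of at least 10 CPM in each other line, and the 11 given here were nearly or wholly lacking in T24. BVES, a membrane protein of epithelia and muscle, and GSPT2, a translation termination factor encoded on the X chromosome, were at 0 in T24. BVES had 11.3 to 24.5 CPM over the 9 other libraries and GSPT2 14.3 to 20.8, which puts T24 at least 454-fold and at least 438-fold lower.

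FBN2, an elastic fibre protein, held 4 reads in T24, and averaged 254 ± 27.9 CPM in 5637, 15.6 ± 1.88 CPM in TCC-SUP and 32.1 ± 4.20 in CLS-439 (log2 difference -9.78 ± 0.24, adjusted p = 2.19e-18). AP1M2, the epithelial subunit of a sorting adaptor, held 6 reads in T24, and averaged 110 ± 5.52 CPM in 5637, 28.4 ± 5.49 CPM in TCC-SUP and 72.1 ± 3.50 in CLS-439. ADGRL2, an adhesion receptor, averaged 0.293 ± 0.0918 CPM in T24, against 33.1 ± 2.80, 86.8 ± 10.3 and 212 ± 0.121 CPM in 5637, TCC-SUP and CLS-439. That every T24 library lay below every other library for these genes was a condition of the rule.

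CD24, a surface glycoprotein of epithelial cells, had 0.449, 0.220 and 0.360 CPM in T24. The other lines ran from 17.4 to 20.3 CPM in CLS-439, over 105 to 148 in TCC-SUP, to 270 to 352 in 5637 (log2 difference from their mean -7.98 ± 0.21, adjusted p = 1.11e-17). CD24 has near-identical copies in the genome, so its counts are uncertain. WNT5A, a ligand that signals mainly without beta-catenin, and ROR2, one of its receptors, were both among the 12. WNT5A averaged 0.521 ± 0.0449 CPM in T24, against 87.7 ± 14.0 in 5637, 201 ± 16.1 CPM in TCC-SUP and 17.1 ± 1.77 in CLS-439. ROR2 held 6 reads in T24 and averaged 19.0 ± 1.07, 12.2 ± 0.494 and 20.3 ± 2.21 CPM in 5637, TCC-SUP and CLS-439. ZNF608 and CPPED1 held 4 and 7 reads in T24 and lay at 10.7 CPM or more in every other library.

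Without CLS-439 the largest falls included MUC16, a membrane mucin, and INA and NEFL, neurofilament proteins. Each was at 0 in T24. MUC16 averaged 53.5 ± 18.6 CPM in 5637 and 81.1 ± 29.8 in TCC-SUP, INA 57.2 ± 7.88 and 36.9 ± 5.55, and NEFL 43.0 ± 2.07 and 17.3 ± 4.43. CLS-439 held 7, 3 and 3 reads of them, so these falls are differences from 5637 and TCC-SUP alone. CYP1B1, an oxidase of oestrogens and aromatic hydrocarbons, and TMEM255A were also at 0 in T24, and CLS-439 stood between at 6.90 ± 1.32 and 0.906 ± 0.0635 CPM.

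**Figure D2:**
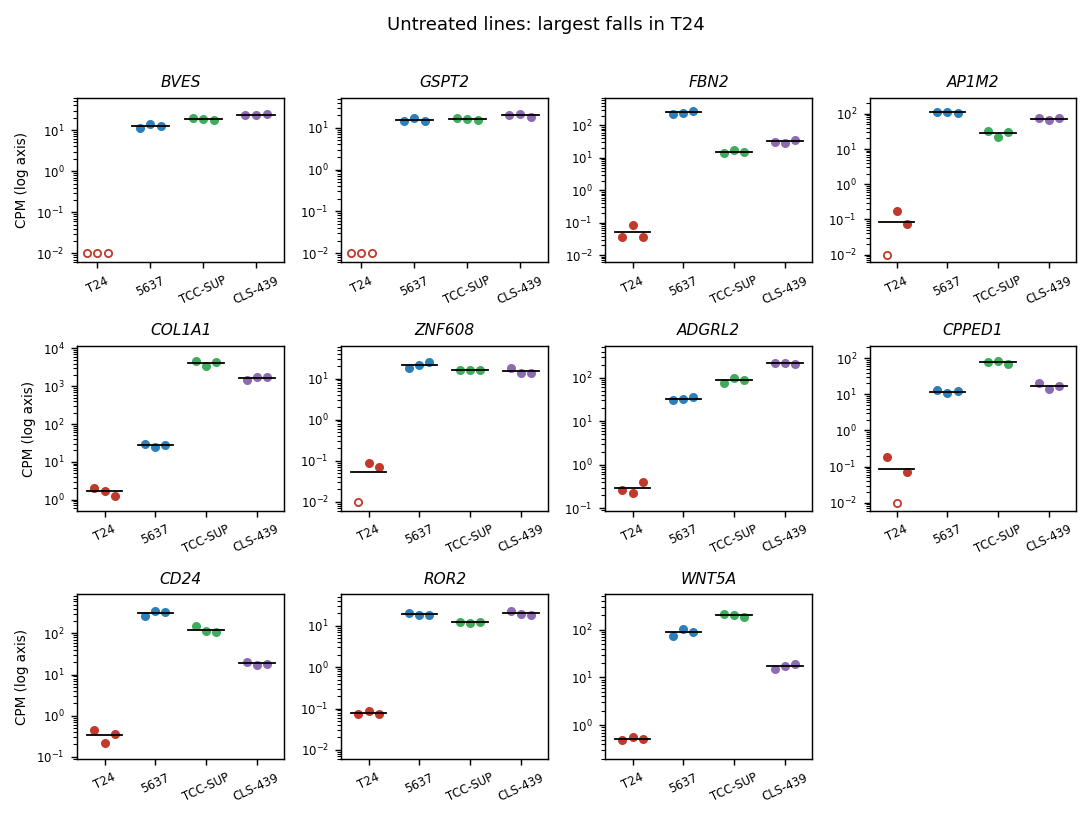
Panels show 11 of the 12 largest falls, with CPM on a log axis (its range differs between panels), T24 on the left and the 3 other untreated lines after it. Filled points are libraries, bars are means of 3, and open points at 0.01 are libraries with no read. BVES and GSPT2 have open points in all 3 T24 libraries. The rule for these genes required T24 libraries below all others and a mean of at least 10 CPM in each other line.

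Genes of epithelial junctions and identity were mostly lower in T24, most of all against 5637. Of 32 tested, 20 were lower in T24 and 6 were higher, with a median log2 difference of -2.92 against -0.07 for all genes. Without CLS-439 the counts were 22 lower and 6 higher, with a median of -3.34. Line by line, 26 were lower and 0 higher than in 5637 (median -4.66). Against TCC-SUP 17 were lower and 8 higher (-1.04), and against CLS-439 18 and 7 (-1.86). The summed level in T24, 738 to 797 CPM, lay below 5637 (2876 to 3050) and CLS-439 (1085 to 1158) and above TCC-SUP (589 to 617). CDH1, the cadherin of epithelial junctions (chr16:68737225-68835548), held 1 read over the 3 T24 libraries. It had 157 to 177 CPM in 5637, 15.8 to 60 CPM in TCC-SUP and 1.81 to 2.45 in CLS-439, all above T24. By reads, 5637 held 12760 times (95% counting interval 2290 to 504200), TCC-SUP 3305 times (593 to 130600) and CLS-439 160 times (28.3 to 6387) the level of T24. The neighbouring CDH3, the cadherin of basal cells (chr16:68636189-68722616), also held 1 read in T24, and averaged 202 ± 12 CPM in 5637, 96.3 ± 30.2 CPM in TCC-SUP and 3.77 ± 0.674 in CLS-439.

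EPCAM, an epithelial adhesion molecule, had 3.15, 2.51 and 2.70 CPM in T24. TCC-SUP was close at 4.95 to 5.63 CPM (log2 difference -0.93 ± 0.14, adjusted p = 6.17e-06), and CLS-439 and 5637 were far above at 49.1 ± 5.90 and 165 ± 5.07 CPM. CLDN4, a tight junction claudin, averaged 0.379 ± 0.192 CPM in T24, against 171 ± 8.16 in 5637, 1.74 ± 0.486 CPM in TCC-SUP and 69.3 ± 8.20 in CLS-439. CLDN7 averaged 0.279 ± 0.0996 CPM in T24, below 5637 at 100 ± 15.5 and TCC-SUP at 5.69 ± 0.862, while CLS-439 held 2 reads. Its call against the mean of the 3 lines was lost without CLS-439 replicate 1 (log2 difference -2.33, adjusted p = 1).

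Of the factors of this programme, GRHL2 and ESRP1 were at or near 0 in T24 and ESRP2 was not. GRHL2, a transcription factor of epithelial junction genes, was at 0 in T24, and also in TCC-SUP and CLS-439. It averaged 90.6 ± 4.62 CPM in 5637, so T24 was at least 2335-fold lower than that line. ESRP1, an epithelial splicing factor, held 1 read in T24 and 3 in TCC-SUP, and averaged 105 ± 9.30 CPM in 5637 and 2.42 ± 0.445 in CLS-439. Its paralogue ESRP2 stood at 15.1 ± 1.41 CPM in T24 against 32.3 ± 1.38 in 5637 and at most 0.714 in TCC-SUP and CLS-439. Among junction genes that T24 kept, CLDN1 averaged 203 ± 30.1 CPM in T24 and 213 ± 9.86 in 5637 (log2 difference -0.07 ± 0.11, adjusted p = 0.653). The desmosomal DSG2, at 164 ± 26.7 CPM in T24, lay below 5637 at 360 ± 40.8 and above TCC-SUP at 21.9 ± 1.39 and CLS-439 at 123 ± 6.53.

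Promoters of CRB3, a polarity protein that held 2 reads in T24, and of CLDN7 are shown because ZEB and SNAI factors are known to repress such genes through the E-box CACCTG. They are RefSeq sequences as above, with CACCTG or its reverse complement CAGGTG in capitals.
CRB3 (chr19:6464021-6464320, plus strand): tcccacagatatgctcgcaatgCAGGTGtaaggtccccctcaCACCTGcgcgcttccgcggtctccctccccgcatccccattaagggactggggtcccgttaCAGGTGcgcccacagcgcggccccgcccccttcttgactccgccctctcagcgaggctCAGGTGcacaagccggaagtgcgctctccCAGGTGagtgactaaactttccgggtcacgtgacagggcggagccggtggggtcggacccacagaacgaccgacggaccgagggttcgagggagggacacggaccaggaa
CLDN7 (chr17:7262429-7262728, minus strand): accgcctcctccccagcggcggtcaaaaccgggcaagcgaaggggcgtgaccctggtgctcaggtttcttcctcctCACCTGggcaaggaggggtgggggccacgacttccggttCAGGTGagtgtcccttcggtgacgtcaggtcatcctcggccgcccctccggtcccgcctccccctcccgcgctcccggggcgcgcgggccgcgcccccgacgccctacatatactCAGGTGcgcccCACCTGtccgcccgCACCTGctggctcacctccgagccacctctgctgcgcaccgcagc
Each held 5 matches, while 20.6% of all 35116 promoters held at least 1. Among the 32 tested epithelial genes 19 had a promoter in the table. They had 29 promoters, of which 15 held the E-box. Of 16 promoters of genes lower in T24, 8 held it, and of 5 of genes higher in T24, 3 did. CRB3 averaged 3.69 ± 0.329 CPM in 5637, 0.0924 ± 0.0470 CPM in TCC-SUP and 5.68 ± 0.166 in CLS-439.

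KRT5 and its regulator TP63 were at or near 0 in T24, and the simple-epithelial keratins KRT7 and KRT8 were high. KRT5, the basal keratin, held 1 read in T24, and had 1057 to 1179 CPM in 5637, 0.282 to 1.15 CPM in TCC-SUP and 0.103 to 0.302 in CLS-439. TP63, the basal master regulator, held 2 reads in T24 and 1 in CLS-439, and averaged 116 ± 6.98 CPM in 5637 and 2.22 ± 0.245 in TCC-SUP. KRT15, also a basal keratin, was not absent, at 6.96 ± 0.473 CPM in T24 against 12.1 ± 1.03 in 5637, 1.09 ± 0.433 CPM in TCC-SUP and 0.0281 ± 0.0487 in CLS-439. TRIM29, another basal gene, held 1 read in T24 against 126 ± 6.05, 11.1 ± 3.24 and 4.37 ± 0.129 CPM in 5637, TCC-SUP and CLS-439. KRT7 had 3261, 3015 and 2084 CPM in T24, against 1713 to 2069 in 5637, 30.3 to 34.3 CPM in TCC-SUP and 1609 to 1931 in CLS-439. KRT8 was likewise highest in T24, at 1761 ± 177 CPM (log2 difference 1.85 ± 0.08, adjusted p = 4.71e-14).

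Of 22 tested basal and squamous genes 9 were higher and 11 lower in T24. BNC1 is 1 of the 9, with SFN, a cell cycle brake of keratinocytes (298 ± 30.4 CPM in T24), and the laminin chain LAMB3 (475 ± 9.93). Both were lower than in 5637, at 381 ± 12.4 and 1260 ± 79.5 CPM, and higher than in TCC-SUP, at 1.58 ± 0.525 and 18.7 ± 2.38 CPM. Of 17 tested luminal and urothelial genes 9 were higher and 6 lower, and without CLS-439 6 and 7. FOXA1, a pioneer factor of luminal cells, averaged 42.4 ± 12.6 CPM in T24, against 6.40 ± 1.14 in 5637, 19.1 ± 1.19 CPM in TCC-SUP and 9.10 ± 1.99 in CLS-439, with no overlap. GATA3 depended on the lines compared: at 28.3 ± 8.99 CPM in T24 it was above the mean of the 3 lines (0.90 ± 0.15) and below that of 5637 and TCC-SUP (-0.58 ± 0.16, adjusted p = 0.00364). PPARG, a nuclear receptor of urothelial differentiation, averaged 42.2 ± 5.52 CPM in T24, against 131 ± 10.5, 94.6 ± 1.67 and 44.0 ± 7.6 in 5637, TCC-SUP and CLS-439.

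As for the label of a urothelial cancer, T24 kept KRT7, KRT8, GATA3 and FOXA1 but lacked surface cell markers. UPK1A, UPK2, UPK3A and KRT20 held 3, 5, 0 and 1 reads in T24 and were too low to test in any line. UPK1B held 3 reads in T24. Leukocyte markers were low: over the 5 tested the summed level was 0.756 to 1.35 CPM in T24, against 0.415 to 0.715 in 5637, 34.8 to 41.5 CPM in TCC-SUP and 9.46 to 10.2 in CLS-439. Of these 5, 1 was higher in T24 than the mean of the 3 lines and 3 were lower. PTPRC, which defines leukocytes, held 3 reads in T24, and CD3E, CD2, MS4A1 and SPI1 held 0. Other leukocyte genes had more: CD14 held 74 reads in T24 against 1 in CLS-439, and FCER1G and ITGAM, too low to test, held 10 and 5. With CLS-439 left out of the fit, CD14 had a log2 difference of -0.675 and did not pass (adjusted p = 0.0777). HLA-DPB1, CD74 and PAX5 thus stood high in libraries where PTPRC, CD3E, CD2, MS4A1 and SPI1 were at or near 0.

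Of 8 tested endothelial markers 3 were higher in T24 and 2 lower, near the shares of all genes (32.9% and 28.1%). CDH5, the endothelial cadherin, had 8.16, 5.76 and 6.62 CPM in T24, with 4, 7 and 0 reads in 5637, TCC-SUP and CLS-439. TIE1, an endothelial receptor, averaged 4.28 ± 0.734 CPM in T24 (log2 difference 4.86 ± 0.25, adjusted p = 3.26e-13). CLDN5 and EMCN, also endothelial, held 0 and 2 reads in T24. TEK held 1 read in T24, against 3371 in TCC-SUP and 1032 in CLS-439. Fibroblast markers summed to 692 to 1027 CPM in T24, 9.83 to 12.7 in 5637, 1807 to 3679 CPM in TCC-SUP and 376 to 400 in CLS-439. TAGLN, which cells of many kinds make, was the 1 of 11 that passed as higher. Of the others 3 were lower and 7 did not pass, and the median log2 difference of the 11 was -3.83.

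**Figure D3:**
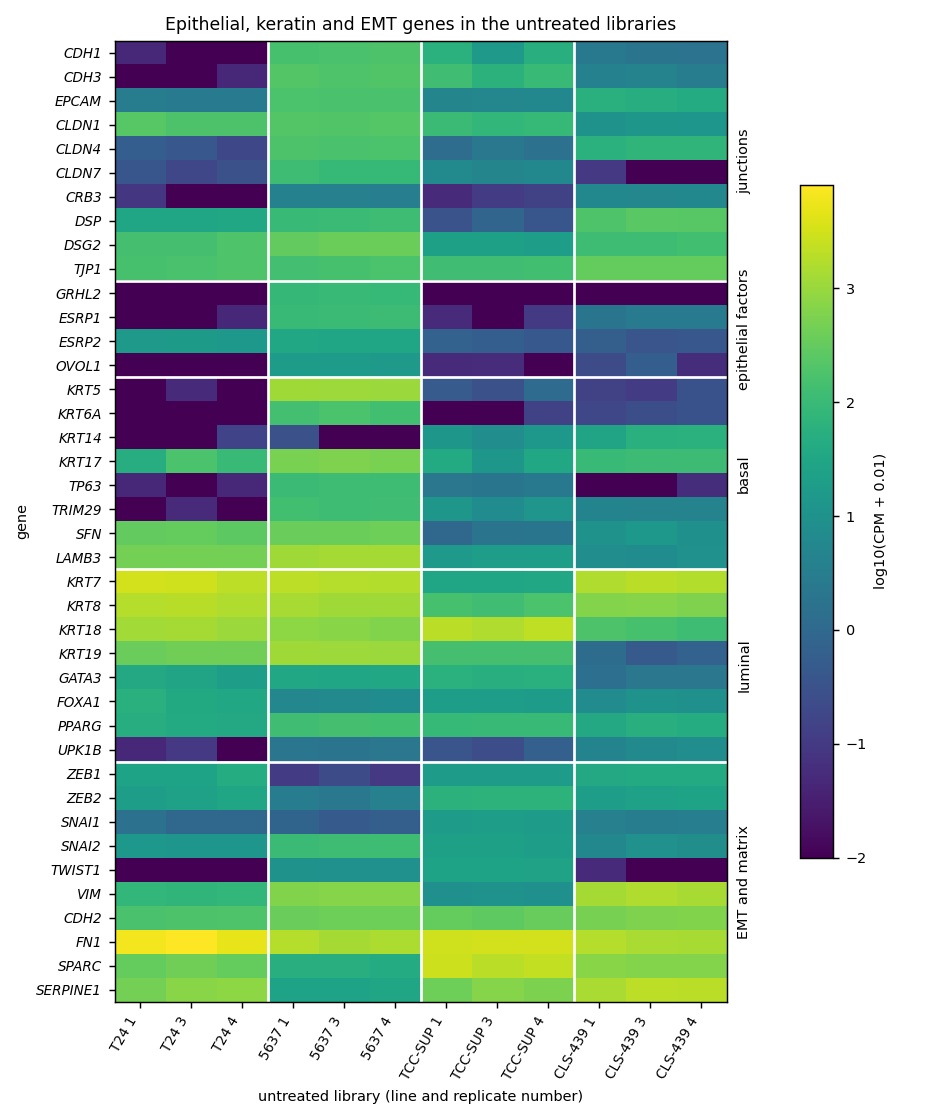
Rows are genes in 5 groups and columns are the 12 untreated libraries, T24 on the left. Colour is log10(CPM + 0.01), so the darkest cells are libraries with no read. T24 is dark for CDH1, CDH3, CRB3, KRT5, TP63 and TWIST1, and bright for KRT7, KRT8, KRT18 and FN1.

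Of 23 tested EMT factors and mesenchymal genes, 7 were higher in T24 and 12 lower, with the same counts without CLS-439. ZEB1, a repressor of epithelial genes, had 26.7, 26.9 and 46.0 CPM in T24, against 0.0873 to 0.231 in 5637, 17.0 to 18.8 CPM in TCC-SUP and 37.0 to 41.8 in CLS-439. T24 lay above 5637 (7.86 ± 0.31) and TCC-SUP (0.88 ± 0.17, adjusted p = 0.000149) and its difference from CLS-439 did not pass (-0.25 ± 0.16, adjusted p = 0.163). TWIST1, an EMT factor of mesoderm, was at 0 in T24, with 9.97 ± 0.484 CPM in 5637, 26.5 ± 1.31 CPM in TCC-SUP and 1 read in CLS-439. T24 was at least 256-fold lower than 5637 and at least 683-fold lower than TCC-SUP. SNAI2 averaged 13.2 ± 0.813 CPM in T24, and 116 ± 6.65, 22.4 ± 1.48 and 8.01 ± 1.99 in 5637, TCC-SUP and CLS-439.

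VIM, the mesenchymal intermediate filament, averaged 77.8 ± 4.79 CPM in T24, above TCC-SUP at 9.88 ± 0.932 and far below 5637 at 665 ± 37.9 and CLS-439 at 1419 ± 145. CDH2, the cadherin gained in EMT, was lowest in T24, at 178 ± 15.4 CPM against 313 ± 28.9 to 568 ± 55.8 in the other lines (log2 difference -1.20 ± 0.09, adjusted p = 1.38e-10). FN1, fibronectin, was highest in T24, at 6462, 8091 and 5015 CPM, against 1267 to 3245 CPM over the 9 other libraries (1.75 ± 0.12, adjusted p = 5.79e-10). The T24 libraries were thus the highest of 12 for FN1 and the lowest for CDH2 and CDH1.

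Collagens changed chain by chain, 10 of 19 higher and 8 lower. COL1A1, the main chain of fibrillar collagen, had 2.06, 1.67 and 1.26 CPM in T24, against 23.9 to 30.2 in 5637, 3505 to 4613 CPM in TCC-SUP and 1466 to 1798 in CLS-439. It was among the 12 largest falls (-8.43 ± 0.18, adjusted p = 5.36e-19). COL16A1 fell by a like amount against each line, from -5.14 ± 0.18 log2 units against CLS-439 to -5.57 ± 0.18 against TCC-SUP. COL8A1, a network collagen, rose against each line, at 131 ± 17.3 CPM in T24 against 18.0 ± 2.36 in 5637, 31.2 ± 5.63 CPM in TCC-SUP and 34.9 ± 3.27 in CLS-439. Of 20 integrins and laminins 10 were lower and 3 higher. ITGB6, the epithelial partner of ITGAV, held 1 read in T24 and averaged 36.1 ± 7.97, 4.33 ± 0.567 and 0.799 ± 0.413 CPM in 5637, TCC-SUP and CLS-439.

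In the RAS-MAPK list, 13 of 26 tested genes were higher in T24 and 8 lower (11 and 9 without CLS-439), with a median log2 difference of 0.33 (-0.08). Against single lines, 7 were higher and 15 lower than in 5637, 12 and 6 than in TCC-SUP, and 18 and 3 than in CLS-439. HRAS itself (chr11:532242-537287) had 205, 209 and 168 CPM in T24, against 122 to 129 in 5637, 36.7 to 37.9 CPM in TCC-SUP and 48.7 to 52.5 in CLS-439. T24 libraries were the 3 highest of 12, and the differences were 0.63 ± 0.09 from 5637, 2.38 ± 0.10 from TCC-SUP and 1.93 ± 0.10 from CLS-439 on the log2 scale. The paralogue NRAS did not pass (-0.18 ± 0.10, adjusted p = 0.145), but was called lower when scaled by library totals alone (-0.27, adjusted p = 0.0385).

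Of the genes that respond to MAP kinase signalling, ETV5, FOSL1 and CCND1 had all T24 libraries above all others. CCND1, the cyclin that drives entry into S phase, averaged 1068 ± 123 CPM in T24, against 723 ± 18.5 in 5637, 397 ± 80.0 CPM in TCC-SUP and 221 ± 22.8 in CLS-439 (1.42 ± 0.09, adjusted p = 3.26e-11). ETV5, an ETS factor, averaged 83.1 ± 7.27 CPM in T24 against 2.16 ± 0.698, 53.4 ± 6.60 and 45.0 ± 2.95 in 5637, TCC-SUP and CLS-439. FOSL1, an AP-1 subunit, averaged 540 ± 51.8 CPM in T24 and 453 ± 12.8 in 5637, a difference that did not pass (0.25 ± 0.30, adjusted p = 0.516). IER3 was lowest in T24 (-1.81 ± 0.11), and DUSP6, a phosphatase that switches ERK off, had 55.2 ± 11.5 CPM in T24, between 5637 at 139 ± 5.87 and TCC-SUP at 22.2 ± 12.8.

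Among growth factors, FGF5 had all T24 libraries on top, at 49.0, 58.2 and 95.2 CPM. The 9 other libraries reached at most 3.54 CPM, and the difference from the mean of the 3 lines was 6.40 ± 0.22 log2 units (adjusted p = 9.22e-13). FGFR2, a receptor of epithelial cells, was at 0 in T24, against 28.7 ± 1.37 CPM in 5637, 1.95 ± 0.414 CPM in TCC-SUP and 27.1 ± 7.0 in CLS-439. That is at least 741-fold, at least 50.4-fold and at least 712-fold lower than the 3 lines. Over the FGF and PDGF list 6 of 14 were higher and 5 lower, with or without CLS-439. Among ERBB receptors and ligands 5 of 12 were higher and 4 lower, which became 2 and 7 without CLS-439. NRG2, a ligand of ERBB3 and ERBB4, held in both, at 10.8 ± 2.5 CPM in T24 and at most 1.12 ± 0.120 as a line mean elsewhere.

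RB1 was higher in T24 than in 5637 and TCC-SUP, and E2F3 was lower. RB1 is the retinoblastoma protein that holds E2F factors in check, and E2F3 one of those factors. RB1 (chr13:48303726-48599436) had 122, 113 and 137 CPM in T24, against 3.53 to 5.17 in 5637, 12.5 to 17.9 CPM in TCC-SUP and 145 to 148 in CLS-439. T24 lay 4.77 ± 0.15 log2 units above 5637 and 3.02 ± 0.13 above TCC-SUP, and its difference from CLS-439 did not pass (-0.24 ± 0.12, adjusted p = 0.069). E2F3 (chr6:20401906-20493715) had 43.5, 47.3 and 48.1 CPM in T24, against 684 to 782 in 5637, 398 to 466 CPM in TCC-SUP and 63.5 to 65.1 in CLS-439. T24 was the lowest of the 4 lines, with log2 differences of -4.01 ± 0.10 from 5637, -3.20 ± 0.10 from TCC-SUP and -0.47 ± 0.09 from CLS-439.

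CDKN2A, whose product p16 inhibits the kinases that phosphorylate RB1, put T24 between CLS-439 and the other lines. It averaged 30.3 ± 4.56 CPM in T24, against 146 ± 2.76 in 5637, 207 ± 17.4 CPM in TCC-SUP and 3.77 ± 0.522 in CLS-439. E2F1 was highest in T24, at 135 ± 8.34 CPM against 51.0 ± 2.11, 78.3 ± 5.70 and 73.8 ± 7.37 CPM in 5637, TCC-SUP and CLS-439. Over the list of cell cycle inhibitors and RB-E2F genes 6 of 19 were higher and 8 lower, and without CLS-439 7 and 8.

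MDM2 was higher in T24, and CDKN1A and BTG2 were lower. MDM2, a ubiquitin ligase, had 125, 104 and 116 CPM in T24, above all 9 other libraries at 39.7 to 55.8 CPM (1.28 ± 0.08, adjusted p = 1.13e-11). CDKN1A, the p21 inhibitor of cyclin-dependent kinases, had 37.0, 29.9 and 20.6 CPM in T24, below all others at 65.8 to 187 CPM (-1.78 ± 0.15, adjusted p = 1.78e-08). BTG2, an antiproliferative factor, was also lowest in T24 (-2.17 ± 0.22).

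Proliferation genes were mostly higher in T24. Of 21 tested, 15 were higher in T24 and 6 did not pass, with or without CLS-439, and 9 had all T24 libraries on top. The median log2 difference was 0.52, and 0.60 without CLS-439. Against single lines, 13 were higher and 2 lower than in 5637, 16 and 0 than in TCC-SUP, and 12 and 4 than in CLS-439. In the treated libraries 9 were higher and 5 lower than the mean of the other lines. AURKA, a mitotic kinase, averaged 282 ± 30.3 CPM in T24, against 179 ± 11.7 in 5637, 117 ± 8.44 CPM in TCC-SUP and 84.2 ± 1.65 in CLS-439. The replication helicase subunits MCM5 and MCM2 and the sliding clamp PCNA were higher by 1.15 ± 0.07, 1.06 ± 0.07 and 0.92 ± 0.07 log2 units. TOP2A, CDK1 and BUB1 were among those that did not pass. CDK1 (-0.21, adjusted p = 0.0555) was called lower with DESeq2 size factors (-0.24, adjusted p = 0.027) and with library totals (-0.29, adjusted p = 0.00983). The growth state of the cultures is not given in the sources used here, and its part was not tested.

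**Figure D4:**
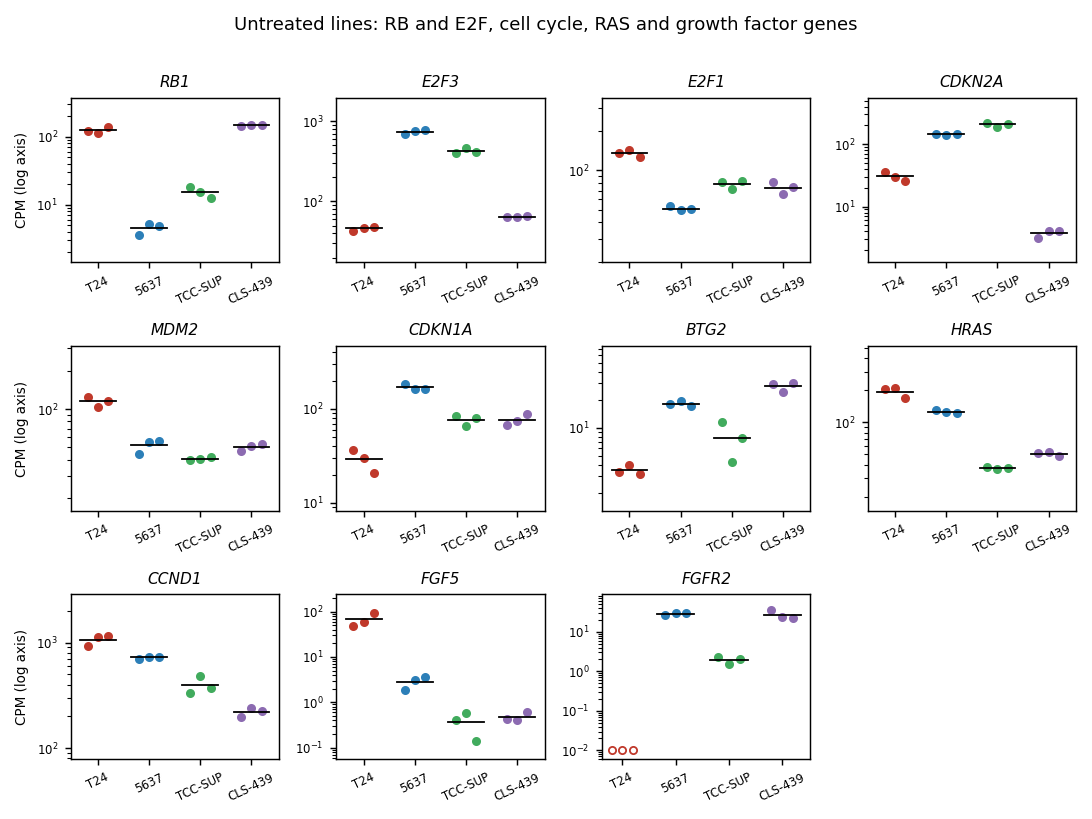
Panels show CPM on a log axis (its range differs between panels) for RB, E2F, cell cycle, RAS and growth factor genes, with T24 on the left and the 3 other untreated lines after it. Filled points are libraries, bars are means of 3 libraries and open points at 0.01 are libraries with no read. RB1 is high in T24 and CLS-439 and low in 5637 and TCC-SUP, E2F3 is high in 5637 and TCC-SUP and low in T24 and CLS-439, and T24 is highest for HRAS, MDM2, CCND1 and FGF5.

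Of the WNT genes tested, 15 of 26 were lower in T24 and 7 higher (14 and 7 without CLS-439). Beside WNT5A and ROR2, the extracellular inhibitor SFRP1 held 1 read in T24 and 1 in TCC-SUP, and averaged 31.5 ± 2.63 CPM in 5637 and 51.9 ± 5.78 in CLS-439. Its call against the mean was lost without TCC-SUP replicate 3 (log2 difference -6.81, adjusted p = 1). DKK3, a secreted relative of WNT inhibitors, had 842, 849 and 699 CPM in T24, against 332 to 360 in TCC-SUP, 17.5 to 23.7 in 5637 and 5 reads in CLS-439 (6.55 ± 0.12, adjusted p = 1.6e-19). The receptor FZD8 averaged 21.8 ± 4.72 CPM in T24 and at most 8.94 ± 1.03 as a line mean elsewhere.

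In the TGF-beta and BMP list 9 of 25 were higher and 11 lower. TGFBR2, the receptor that binds the TGF-beta ligands, averaged 289 ± 9.32 CPM in T24, against 112 ± 4.54 in 5637, 22.1 ± 6.35 CPM in TCC-SUP and 57.4 ± 4.71 in CLS-439 (2.47 ± 0.10, adjusted p = 4.97e-14). The inhibitory SMAD7 and SMAD6, which the pathway induces, were lowest in T24, at 4.94 ± 1.40 and 5.83 ± 1.63 CPM. The other lines had 11.3 ± 0.0550 to 61.6 ± 1.23 CPM of SMAD7 and 19.3 ± 3.92 to 31.8 ± 2.73 CPM of SMAD6. GREM1, a BMP antagonist, was at 0 in T24, against 4.55 ± 0.312 CPM in 5637, 6.53 ± 0.559 CPM in TCC-SUP and 12 reads in CLS-439.

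Of 36 HOX genes tested, factors that set position along the body axis, 22 were higher in T24 and 7 lower, and without CLS-439 19 and 10. Line by line, 19 were higher and 10 lower than in 5637, 12 and 14 than in TCC-SUP, and 20 and 14 than in CLS-439. HOXD1, HOXC9 and HOXA13 were highest in T24, at 5.20 ± 0.487, 6.96 ± 0.826 and 8.77 ± 1.75 CPM. Within the HOXA cluster HOXA11 and HOXA9 went down while HOXA13 went up. HOXA11 held 1 read in T24, and averaged 17.2 ± 0.994 CPM in 5637, 28.7 ± 0.5 CPM in TCC-SUP and 1.55 ± 0.228 in CLS-439. HOXA9 averaged 2.47 ± 0.923 CPM in T24, below all 9 other libraries (-2.91 ± 0.18, adjusted p = 1.43e-11).

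Most MHC class I genes were lower in T24 than in TCC-SUP, and most were higher than in 5637. HLA-B averaged 101 ± 22.2 CPM in T24, 65.3 ± 5.36 in 5637, 991 ± 88.2 CPM in TCC-SUP and 377 ± 17.3 in CLS-439. HLA-E, the ligand of an inhibitory receptor of natural killer cells, was highest in T24 at 288 ± 40.9 CPM against 70.4 ± 4.31, 207 ± 29.1 and 151 ± 7.34 CPM in 5637, TCC-SUP and CLS-439. HLA-F, a class I gene of lower level, was also highest in T24, at 8.16 ± 1.99 CPM against 2.52 ± 0.294, 1.19 ± 0.17 and 2.98 ± 1.25 CPM in 5637, TCC-SUP and CLS-439. Of 16 tested genes 4 were higher and 7 lower than the mean of the 3 lines, 10 higher and 3 lower than 5637 (28.6% and 29.3% of all genes) and 2 higher and 14 lower than TCC-SUP (28.2% and 33.6%). B2M, the shared light chain, did not pass against the mean (0.10 ± 0.08, adjusted p = 0.344).

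Interferon-stimulated genes put T24 above 5637 and below TCC-SUP. Of 22 tested 12 were higher and 4 lower than the mean of the 3 lines, with 18 higher than 5637 and 20 lower than TCC-SUP. BST2, a tether of budding viruses, averaged 118 ± 22.4 CPM in T24, was at 0 in 5637, and stood at 222 ± 73.1 in TCC-SUP and 2.30 ± 1.05 in CLS-439. IFIT1 averaged 36.2 ± 14.6 CPM in T24, between 0.186 ± 0.130 in 5637 and 224 ± 97.9 in TCC-SUP. The SD of these genes was large in TCC-SUP, where the summed level of the list ran from 2067 to 4598 CPM, against 662 to 995 CPM in T24.

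Of 22 tested NF-kB and cytokine genes, 3 were higher and 17 lower in T24 than in 5637, 11 higher and 9 lower than in TCC-SUP, and 14 higher and 3 lower than in CLS-439. CXCL8 and CXCL1 were far above TCC-SUP and CLS-439. CXCL8, a neutrophil chemokine, averaged 179 ± 25.1 CPM in T24, against 331 ± 52.1 in 5637, 0.371 ± 0.279 CPM in TCC-SUP and 1.37 ± 0.542 in CLS-439. CXCL1 averaged 221 ± 12.4 CPM in T24 and 274 ± 57.8 in 5637, which did not pass (-0.31 ± 0.14, adjusted p = 0.0679), with 3 and 18 reads in TCC-SUP and CLS-439. CSF3, the granulocyte growth factor, averaged 36.0 ± 3.90 CPM in T24 and 513 ± 219 in 5637. Over the list 12 were higher and 6 lower than the mean of the 3 lines, and 9 and 10 without CLS-439.

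Detoxifying genes under the factor NRF2 leaned lower, 9 of 19 against 5 higher, and 11 against 2 without CLS-439. AKR1C2, a reductase of steroids, held 1 read in T24, and averaged 15.0 ± 3.17 CPM in 5637, 24.4 ± 6.34 CPM in TCC-SUP and 0.363 ± 0.0489 in CLS-439, although reads of the AKR1C family can be split between near-identical members. ABCC3, an export pump, averaged 3.03 ± 0.697 CPM in T24, against 31.9 ± 1.90, 295 ± 44.8 and 107 ± 16.9 CPM in 5637, TCC-SUP and CLS-439 (-5.06 ± 0.16, adjusted p = 9.17e-16). NQO1, which can reduce mitomycin C, was higher than the mean of the 3 lines (0.49 ± 0.10) and did not pass without CLS-439 (0.21 ± 0.10, adjusted p = 0.1).

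Of 17 chromatin genes often mutated in bladder cancer 9 were higher and 6 lower. KDM6A, a histone demethylase encoded on the X chromosome, averaged 23.7 ± 2.27 CPM in T24, against 61.9 ± 2.84 in 5637, 60.2 ± 4.73 CPM in TCC-SUP and 25.6 ± 1.46 in CLS-439. In treated libraries its log2 difference was 0.261 and did not pass. Among plasminogen activation genes 7 of 12 were higher and 3 lower, and without CLS-439 2 and 7. ANXA2, a plasminogen receptor, was highest in T24 at 5942 ± 482 CPM, against 1684 ± 80.7 to 2971 ± 188 in the other lines. SERPINE2, a protease inhibitor, was lowest, at 38.9 ± 12.1 CPM against 168 ± 12.3 to 847 ± 108. The 11 tested cancer-testis antigens summed to 3.63 to 5.51 CPM in T24, 0.923 to 1.48 in 5637, 346 to 365 CPM in TCC-SUP and 0.759 to 1.65 in CLS-439.

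All 13 mitochondrially encoded genes were higher in T24 than the mean of the 3 lines, with a median of 3.97. Against 5637 and TCC-SUP alone 1 was higher and 7 lower, with a median of -0.30. Their summed level was 30990 to 38780 CPM in T24, 39820 to 47870 in 5637, 41770 to 46720 CPM in TCC-SUP and 45.3 to 77.6 in CLS-439, so CLS-439 alone is low.

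**Figure D5:**
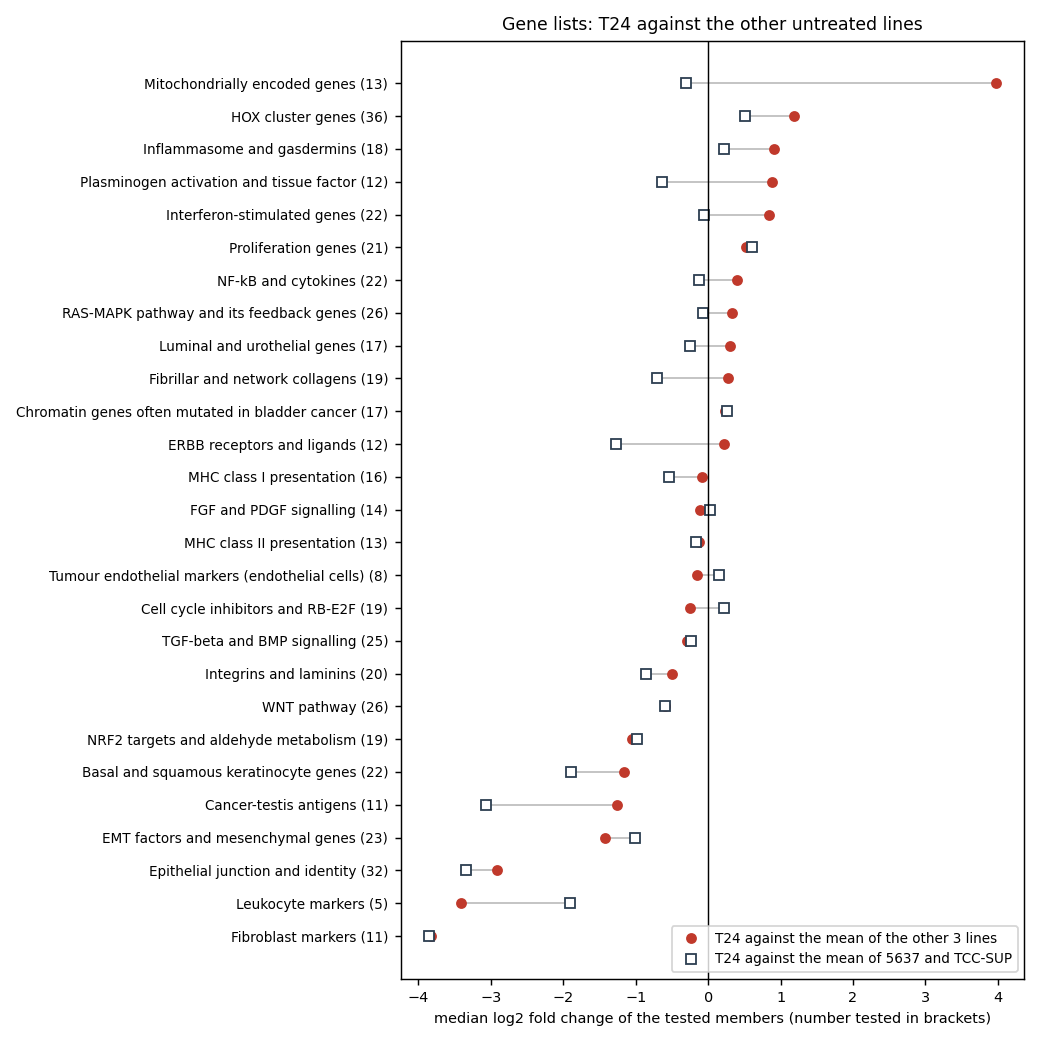
Each row is a gene list with the number of its genes tested, and the horizontal axis is the median log2 difference of those genes. Filled circles set T24 against the mean of the other 3 lines and open squares against the mean of 5637 and TCC-SUP. The median of all genes is -0.07 and 0. Epithelial genes lie at -2.92 and -3.34 and proliferation genes at 0.52 and 0.60, while mitochondrially encoded genes lie at 3.97 and -0.30.

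The comparison was repeated in the 12 treated libraries, fitted apart. There 5428 of 19426 genes were higher in T24 (27.9%) and 4493 lower (23.1%). Of 6296 genes higher in untreated T24 and tested in both, 4497 were higher again, which is 71.43% of the untreated and 85.64% of the treated calls, and 53 were lower. Of 5365 lower, 3419 were lower again (63.73% and 77.09%) and 60 were higher. HLA-DPB1, BNC1, WSCD1 and NLRP1 were higher in treated T24 as well. Treated libraries hold both the line and its response to the drug, which cannot be told apart there.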

How the data were processed

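RNA of 24 libraries from 4 bladder cancer lines was sequenced as stranded mRNA, per the labels' protocols. The deposited values are raw read counts per gene, made by the authors. Tools listed in the submitters' processing notes are the aligner STAR (version 2.5.3a) and the read counter featureCounts (version 1.6.2), with build GRCh38. Which annotation release was used, and how strand and multi-mapping reads were handled, is not given in the sources used here.

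Samples were grouped by line and treatment from their labels. The 12 untreated libraries were fitted with edgeR 4.0.16 in R 4.3.3 (quasi-likelihood test, TMM scaling, edgeR's filter on low counts, robust estimates, 1 mean per line), which left 8 residual degrees of freedom. T24 was set against the mean of the other 3 lines, each line, and the mean of 5637 and TCC-SUP. All these comparisons share the T24 libraries. P-values were adjusted over all 19523 genes by Benjamini-Hochberg. The design text calls replicates biological, and p-values measure the spread between cultures of 1 line. CPM values carry TMM scaling, with n = 3 for each mean ± SD, and ± after a log2 difference is an SE. The fit was tested on simulated data.

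Named genes were the 4 markers, the 12 largest rises and falls (8 without CLS-439) and members of gene lists. Some genes that this rule names are not reported here. The gene lists and this rule were chosen with earlier results of these data known. Of the gene identifiers, 58216 of 58381 matched GENCODE 29, which gave symbols and coordinates. Where a line had no read, a fold was set against 3 reads over its 3 libraries, and 95% intervals of ratios cover counting error only. DESeq2 1.42.0 size factors and test, other scalings, no filter, leaving out libraries and a replicate block were alternatives.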

Additional observations from a re-analysis of the deposited data

How the results depend on the processing

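Counts of genes higher and lower in T24 stayed within 1.5 times of the values given under every alternative run. Against the mean of the 3 lines the higher count ran from 5210 to 7275 and the lower from 4383 to 6750. With the replicate block, the numbers 1, 3 and 4 as pairs, they were 6461 and 5534. With each line's own mean taken off each gene's log CPM, same-numbered libraries of T24 and another line correlated at -0.083 to 0.168. Of 12 libraries, 7 correlated best with one of their own number, among 9 from other lines of which 3 shared it. Whether same-numbered libraries share more than a number was not tested. Leaving CLS-439 out of the fit turned the sign of EREG (-1.14), FGFBP1 (-1.02), MAGEA3 (-0.75), MAGEA1 (-0.464), ALDH1A3 (-0.518), F3 (-0.694), CD14 (-0.675), MT-ATP8 (-0.0878), MT-ND4L (-0.194), MT-CO2 (-0.234), MT-CYB (-0.316), NLRC5 (-0.431), KRT18 (-0.000357), GATA3 (-0.597), SPARC (0.0484) and DUSP6 (-0.0207). Of these, EREG, FGFBP1, MAGEA3, ALDH1A3, F3, MT-CYB, NLRC5 and GATA3 passed with the new sign, and the others did not pass. Treated in place of untreated libraries turned the sign of KDM6A (0.261), MX1 (1.2) and SNAI2 (0.232), of which only MX1 passed. The cause was not tested. Depth limits genes at a few reads, where a line with no read can hold up to 3.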

Other observations

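Among 11399 protein-coding genes at 5 CPM or more, the log2 difference of T24 from the mean of 5637 and TCC-SUP varied by chromosome around a median of 0.046, with 37.15% of these genes higher in T24 and 31.51% lower. On chromosome 7 the median of 538 genes was -0.61, with 7.25% higher in T24 and 76.4% lower. On chromosome 11 the median of 646 genes was 0.59, with 72.5% higher, and on chromosome 20 that of 320 genes was 0.54, with 73.8% higher. On chromosome 16 the median was 0.70 against 5637 and -0.12 against TCC-SUP. DNA copy number is not given in the files used here.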
